A study of Homo sapiens with 6 samples.

Results

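The HOX genes are transcription factor genes that carry a homeobox, a stretch that encodes the DNA-binding homeodomain. In humans they lie in 4 clusters, and genes of different clusters that arose from a shared ancestor carry the same position number, from 1 at the head end to 13 at the tail end. All symbols in the deposited gene table that consist of HOX, a cluster letter from A to D and a number were taken, which gave 39 members among 26372 genes. There were 11 members in the HOXA cluster (chromosome 7), 10 in HOXB (chromosome 17), 9 in HOXC (chromosome 12) and 9 in HOXD (chromosome 2). The data came from SH-SY5Y, a human neuroblastoma line, after lentiviral infection and puromycin selection. Cells of the knockdown group (labelled shT2) carried a stable hairpin (shRNA) directed at TDP-43, and those of the control group (labelled shNC3) a control hairpin. Each group had 3 poly(A) RNA libraries. The target, TDP-43 (gene TARDBP), binds RNA in the nucleus and is depleted there in neurons of most patients with amyotrophic lateral sclerosis. The labels give 1 name to each arm and say neither how many clones it holds nor whether its libraries are of different cultures. The p-values therefore cover the spread between these libraries alone, which may be technical.

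During development HOX genes are switched on along a cluster in order of position, so that cells at different levels of the body axis hold different combinations of HOX proteins. Neuroblastoma arises from the sympathetic lineage of the trunk neural crest, and the HOX genes that neural crest cells and neurons express are a record of the axial level they come from. HOX proteins bind DNA together with TALE homeodomain proteins of the PBX, MEIS and PKNOX families. Retinoic acid, which induces differentiation of neuroblastoma cells, is a classical activator of HOX genes, and Polycomb proteins keep silent HOX clusters closed.

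Values are the authors' deposited FPKM (fragments per transcript length and library size). Absolute depth is unknown. From the spacing of low values, relative depth was 52.4% to 94.4% of the deepest library in the knockdown and 84.2% to 100% in the control. The targeted gene, TARDBP, averaged 21.2 ± 0.598 FPKM (SD, n = 3) after knockdown against 49.5 ± 1.49 (SD, n = 3). Marker lists for other cell states differed between the arms. Of the mesenchymal (substrate-adherent) markers 13 were tested, of which 11 fell and 1 rose. Among the falls, PRRX1, NT5E, RUNX1 and FOSL1 were tested only because of their control levels. The summed level of all 14 was 730 to 740 FPKM in the knockdown libraries and 2425 to 2467 in the controls. Of 11 tested noradrenergic (neuron-like) markers 10 rose and 1 fell, which was DBH (31.3 against 38.1 FPKM). The sums of this list were 1149 to 1286 FPKM against 588 to 601, and the defining enzyme gene TH was listed at 0 in all 6 libraries. Over all genes in the test described below, 30.5% were called higher and 35.9% lower. Epithelial markers summed to 10.7 to 11.4 FPKM against 90.5 to 97.2, and most of that was KRT18 (means of 9.93 and 89.8). KRT8 was lower as well (0.334 against 4.45 FPKM). EPCAM was higher (0.848 against 0.285 FPKM), and CDH1 was near 0 in both groups. Glial markers summed to 36.0 to 37.1 FPKM against 39.1 to 41.9. Endothelial and leukocyte markers summed to at most 0.576 FPKM in any library. In a bulk sample fewer cells of a type and less RNA per cell cannot be told apart, and the part of these cell states in the HOX results was not tested.

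Sequences before transcript starts of 3 HOXD genes are shown because HOXD3 and HOXD8 rose in the knockdown while HOXD11, in the same cluster, was not called. They are reference sequences (RefSeq, GRCh38.p14, plus strand, 5′ to 3′), not reads of these cells. Each lies before an annotated transcript start, with CpG dinucleotides in capitals. For HOXD8 and HOXD11 that is the start of the gene, whereas the HOXD3 window lies inside the HOXD3 gene, before an internal start. The HOXD3 window is chr2:176157057-176157306, the HOXD8 window chr2:176129455-176129693 and the HOXD11 window chr2:176107030-176107279.
HOXD3: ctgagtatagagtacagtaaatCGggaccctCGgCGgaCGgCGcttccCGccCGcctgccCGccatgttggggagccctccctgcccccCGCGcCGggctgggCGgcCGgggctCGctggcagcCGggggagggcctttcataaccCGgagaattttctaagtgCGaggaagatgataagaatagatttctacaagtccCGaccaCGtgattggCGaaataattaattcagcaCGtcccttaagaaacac
HOXD8: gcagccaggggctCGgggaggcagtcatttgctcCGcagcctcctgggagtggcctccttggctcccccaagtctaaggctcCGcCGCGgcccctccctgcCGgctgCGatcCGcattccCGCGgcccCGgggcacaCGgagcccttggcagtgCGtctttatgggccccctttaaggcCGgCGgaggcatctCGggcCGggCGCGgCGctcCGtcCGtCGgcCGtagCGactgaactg
HOXD11: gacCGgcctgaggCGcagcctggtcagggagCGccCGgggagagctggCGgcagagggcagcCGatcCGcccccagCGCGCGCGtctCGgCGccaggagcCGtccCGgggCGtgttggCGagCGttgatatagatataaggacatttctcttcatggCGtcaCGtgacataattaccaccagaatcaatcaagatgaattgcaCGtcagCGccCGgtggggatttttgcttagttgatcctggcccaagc
In the 250 bases before these RefSeq starts, HOXD3 (internal start) has 21 CpGs, HOXD8 28 and HOXD11 23. The HOXD8 stretch shown is cut to 239 bases and leaves out those next to the start, so it holds fewer CpGs than the 28 counted. Over 34943 such windows genome-wide the median was 11 and 32.4% held 20 or more, as all 3 shown do. Both strands were searched for 6 short motifs: TATAAA (the TATA box), CCAAT (the CCAAT box), GGGCGG (the GC box), TAATTA (a homeodomain core), TGATTNAT (a PBX-HOX composite) and AGGTCA (a nuclear receptor element). HOXD3 held GGGCGG in 2 places, CCAAT in 1 and TAATTA in 1, whereas HOXD8 held none of the 6. HOXD11 held the GC box, the homeodomain core and the PBX-HOX composite once each, the last of which occurs in 2.49% of all windows. TAATTA occurs in 4.35% of windows, CCAAT in 32.0% and GGGCGG in 42.5%, while TATAAA (10.8%) and AGGTCA (12.1%) were in none of the 3.

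Transcripts came from HOXC and HOXD, and hardly any from HOXA or HOXB. Of the 39 members, 20 were listed at 0 in all 6 libraries. These were 10 of 11 HOXA genes, 7 of 10 HOXB genes, 3 of 9 HOXC genes and no HOXD gene. The remaining HOXA gene, HOXA13, was above 0 in a single library, at 0.0313 FPKM in control library 3. A listed 0 is not proof of silence, because the estimate may have failed. At 1 FPKM or more in the group mean there were 9 members in the knockdown and 10 in the control, of which 8 were in both (HOXC4, HOXC5, HOXC6, HOXC9, HOXD3, HOXD4, HOXD8 and HOXD9). HOXD10 reached that level in the knockdown alone, and HOXB2 and HOXC8 in the control alone.

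**Figure D1:**
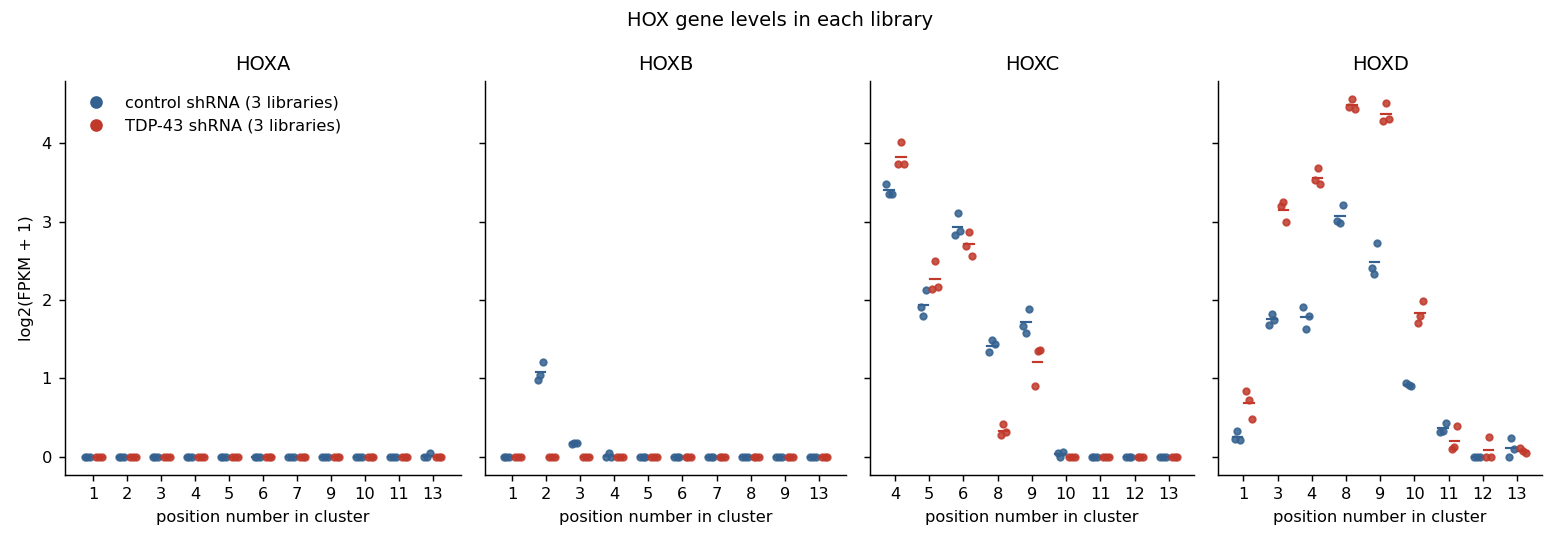
HOX gene levels as log2(FPKM + 1) against position number, 1 panel per cluster, with 1 point per library and a bar for the mean of each group of 3. HOXA lies at or near 0, HOXB2 is above 0 in the controls only, and the HOXD3, HOXD4, HOXD8, HOXD9 and HOXD10 knockdown points all lie above the control points.

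The balance between the clusters differed between the arms. Summed over its 9 members, HOXD stood at 61.4, 68.2 and 60.3 FPKM after knockdown and at 17.7, 17.2 and 20.1 FPKM in the controls, a 3.45-fold difference of the means. HOXC sums were 22.3, 27.9 and 22.5 FPKM against 22.7, 23.1 and 23.4, so the HOXC totals overlapped. HOXD thus made up 72.4% ± 1.26 of all HOX FPKM after knockdown and 42.9% ± 1.68 in the control, and HOXC 27.6% ± 1.26 against 54.1% ± 1.88 (SD, n = 3 each). The summed level of all HOX genes was 87.6 ± 7.48 FPKM after knockdown and 42.7 ± 2.04 in the control, 2.05-fold higher.

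**Figure D2:**
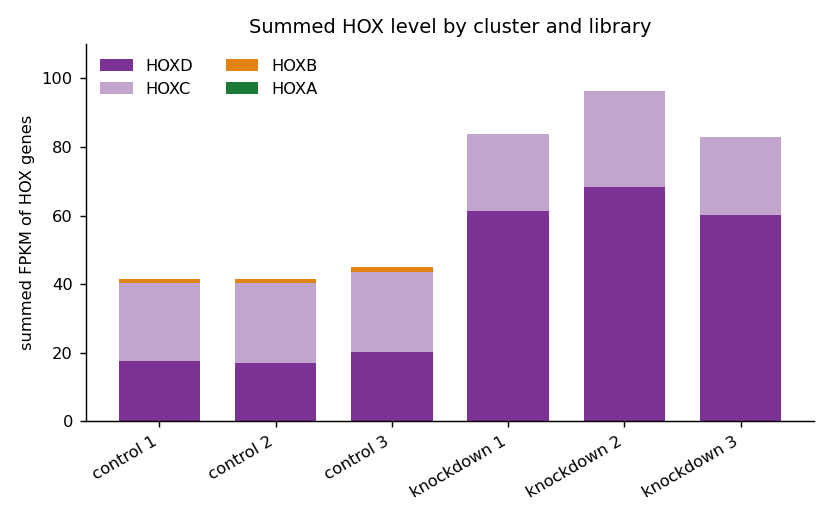
Summed FPKM of HOX genes in each library, stacked by cluster. The HOXD part is 60.3 to 68.2 FPKM in the 3 knockdown libraries and 17.2 to 20.1 in the 3 controls, while the HOXC part is 22.3 to 27.9 and 22.7 to 23.4.

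Knockdown and control were compared by limma (two-sided) on log2(FPKM + 1). The test covered the 13434 genes that averaged at least 1 FPKM, and calls were made at a Benjamini-Hochberg adjusted p under 0.05. Of the 39 members, 9 passed that minimum: HOXC4, HOXC5, HOXC6, HOXC9, HOXD3, HOXD4, HOXD8, HOXD9 and HOXD10. Of the 9, 7 rose, 1 fell and 1 was not called. HOXD10 passed only through its knockdown level. Of the 8 members at 1 FPKM or more in both groups, 6 rose, 1 fell and 1 was not called. Over all tested genes 66.3% were called, 30.5% higher and 35.9% lower, so that being called sets no gene apart here. HOXD3, HOXD4, HOXD8 and HOXD9 rose by 1 or more on the log2 scale, as did 3.31% of tested genes, and no tested member fell by that much (7.95% of tested genes did). The 2 groups of libraries did not overlap in 70.8% of tested genes, with the knockdown above in 32.5% and below in 38.2%, and they did not overlap in 8 of the 9 members, with the knockdown above in 7 and below in 1. The median log2 fold change was 0.91 over the 8 members at 1 FPKM or more in both groups and -0.02 over all tested genes. Rescaling the columns to equal sums moved the median of all genes by -0.80, and single genes are to be read against that shift. An exact two-sided permutation test of a single gene cannot go below p = 0.1 with 3 against 3 libraries.

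The tested HOXD genes rose: HOXD3, HOXD4, HOXD8 and HOXD9, each at 1 FPKM or more in both groups, and HOXD10, which was tested only because of its knockdown level. HOXD9 (chromosome 2, 176122719 to 176124937), a gene of the first posterior group that is active in trunk and limb, stood at 18.4, 21.8 and 18.8 FPKM after knockdown and at 4.32, 4.04 and 5.60 FPKM in the control. All knockdown libraries were high and the groups lay well apart. The difference of the means was 4.22-fold, and the log2 fold change was 1.88 (standard error 0.109, limma adjusted p = 9.37e-07). HOXD4 (176151550 to 176153226), which acts in the hindbrain and neck region, stood at 10.5, 11.8 and 10.1 FPKM against 2.77, 2.11 and 2.46. Its means differed 4.42-fold, the widest ratio among the tested members, with a log2 fold change of 1.78 (standard error 0.091, limma adjusted p = 4.18e-07).

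HOXD8 (176129705 to 176132695), a central gene of the cluster, had the highest level of any member in the knockdown, at 21.1, 22.7 and 20.7 FPKM against control values of 7.07, 6.88 and 8.27. It rose by 1.42 on the log2 scale (standard error 0.074, limma adjusted p = 4.50e-07), 2.90-fold in the means. HOXD3 (176152529 to 176173098), an anterior gene, stood at 8.19, 8.50 and 6.94 FPKM against 2.21, 2.55 and 2.35, a rise of 1.39 (standard error 0.087, limma adjusted p = 1.48e-06). HOXD10 (176116778 to 176119937), known for its part in lumbar motor neurons, had the lowest level of the tested HOXD genes in every library. It rose, at 2.26, 2.46 and 2.98 FPKM after knockdown against 0.925, 0.884 and 0.869 in the control. Its means differed 2.88-fold and its log2 fold change was 0.91 (standard error 0.098, limma adjusted p = 5.06e-05). In each of these 5 genes every knockdown library lay above every control library. With columns rescaled to equal sums the log2 fold changes were smaller, at 1.07 for HOXD9, 1.05 for HOXD4, 0.59 for HOXD8, 0.68 for HOXD3 and 0.37 for HOXD10, and all were still called higher. HOXD3 and HOXD4 share exons in the annotation through a readthrough gene (62.2% and 80.5% of their exonic bases in GENCODE 29), so their FPKM need not be independent. HOXD8 and HOXD9 share no exonic base with another annotated gene, and they rose as well. HOXD10 shares 16.8% of its exonic bases with HOXD11.

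Levels faded at both ends of the HOXD cluster. HOXD1, at the anterior end, stood at 0.794, 0.653 and 0.404 FPKM after knockdown and 0.173, 0.253 and 0.165 in the control, without overlap. It was tested only with the minimum mean lowered to 0.1 FPKM, where 59.1% of 16933 genes were called (27.6% higher and 31.5% lower), 65.6% did not overlap and 31.2% lay wholly above the control. There it rose by 0.43 (standard error 0.104, limma adjusted p = 0.00797), and of its exonic bases 58.1% lie opposite exons of the antisense gene HAGLR or another gene. HOXD11, HOXD12 and HOXD13, which pattern limbs and the genital tract, were low in every library. HOXD11 stood at 0.0708, 0.0921 and 0.314 FPKM against 0.248, 0.258 and 0.353. Its groups overlapped and it was not called (log2 fold change -0.16, limma adjusted p = 0.212 at the lower minimum), although without knockdown library 3 it was called lower (-0.25, adjusted p = 0.0434). HOXD12 was above 0 only in knockdown library 2 (0.192 FPKM). HOXD13 ranged from 0.0304 to 0.0824 FPKM after knockdown and from 0 to 0.180 in the control.

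The HOXC genes did not move as one. HOXC4 (chromosome 12, 54016888 to 54056030), at the anterior end of its cluster, stood at 12.4, 15.1 and 12.3 FPKM after knockdown and 10.2, 9.21 and 9.25 in the control. It rose by 0.43 on the log2 scale (standard error 0.085, limma adjusted p = 0.00202), 1.39-fold in the means, but fell by 0.40 with columns rescaled to equal sums. With 6 abundant small RNAs left out of the sums it rose again (0.40). HOXC5 stood at 3.42, 4.62 and 3.49 FPKM against 2.76, 2.46 and 3.37. Its rise of 0.33 (standard error 0.122, limma adjusted p = 0.0426) came close to the threshold and was -0.37 under the first rescaling. It kept its call in 10 of 18 alternatives: it was not called with the small RNAs left out of the sums (adjusted p = 0.0657), at a minimum mean of 0.1 FPKM (adjusted p = 0.0528), with no minimum (adjusted p = 0.0835), with the replicate block (adjusted p = 0.0601) or without knockdown library 2 (adjusted p = 0.119), control library 1 (adjusted p = 0.105) or control library 2 (adjusted p = 0.142). HOXC6, which acts at the level of the forelimb, stood at 5.46, 6.31 and 4.92 FPKM against 6.08, 7.60 and 6.37. Its groups overlapped and it was not called (log2 fold change -0.23, standard error 0.102, limma adjusted p = 0.0782), although without knockdown library 2 it was (-0.31, adjusted p = 0.0234). HOXC4, HOXC5 and HOXC6 share the start 54016888 in RefSeq, and HOXC5 shares 43.4% of its exonic bases with other genes of its strand, so their separate levels are uncertain.

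Toward the posterior end HOXC transcripts were lower in the knockdown. HOXC8 (54008985 to 54012769), of the lower brachial level, stood at 0.210, 0.333 and 0.248 FPKM after knockdown and at 1.52, 1.80 and 1.70 in the control, 6.36-fold higher in the control. Its mean of 0.970 FPKM lay just under the minimum. At the lower minimum it fell by 1.08 on the log2 scale (standard error 0.082, limma adjusted p = 1.14e-05). There 6.75% of genes fell by 1 or more, and 34.5% lay wholly below the control. HOXC9 (54000161 to 54003337), a thoracic-level gene whose product has been tied to neuronal differentiation of neuroblastoma cells, stood at 0.864, 1.56 and 1.57 FPKM against 2.19, 1.99 and 2.70. It fell by 0.51 (standard error 0.145, limma adjusted p = 0.0135), without overlap. The call was lost without control library 3 (-0.42, adjusted p = 0.0517). With columns rescaled to equal sums HOXC9 was at -1.09. HOXC10 reached at most 0.0415 FPKM, and HOXC11, HOXC12 and HOXC13 were listed at 0 throughout.

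**Figure D3:**
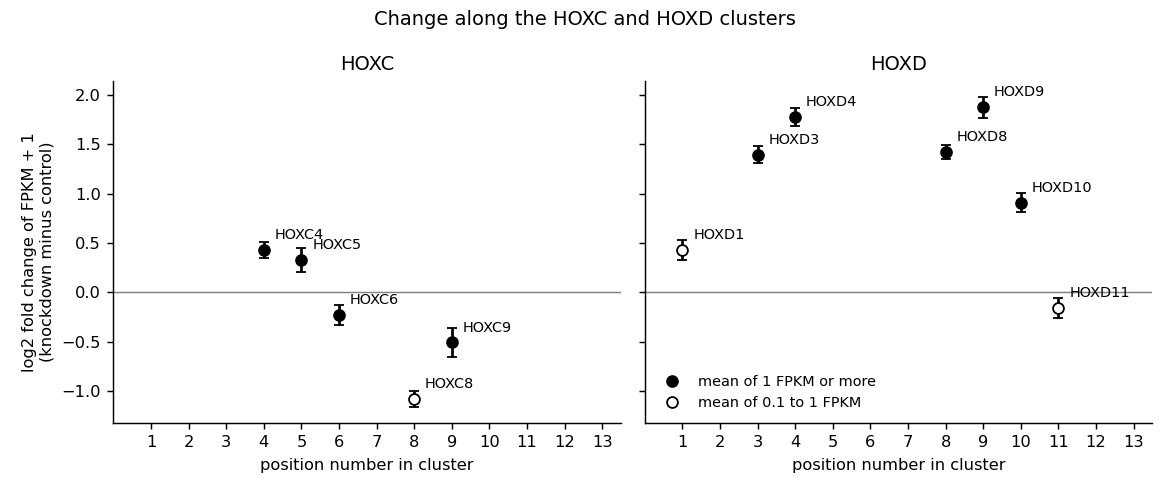
Log2 fold change of FPKM + 1 (knockdown minus control, bars for 1 standard error) against position number in HOXC and HOXD, with open circles for genes tested at the lower minimum of 0.1 FPKM. HOXD genes from 1 to 10 lie above 0, and HOXC runs from 0.43 at HOXC4 to -1.08 at HOXC8.

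Ratios within a library, which no scaling of columns can alter, differed between the groups as well. HOXC4 stood at 2.26, 2.39 and 2.49 times HOXC6 after knockdown and at 1.67, 1.21 and 1.45 times in the controls. HOXC6 stood at 26.0, 19.0 and 19.8 times HOXC8 against 3.99, 4.22 and 3.74 times. The groups lay apart in both: HOXC4 was higher relative to HOXC6 in the knockdown, and HOXC6 relative to HOXC8. Beyond HOXC8 the order turned, since HOXC9 stood at 4.12, 4.69 and 6.34 times HOXC8 against 1.44, 1.10 and 1.59 times. Within HOXD, HOXD9 stood at 0.914 ± 0.0465 times HOXD8 in the knockdown and 0.626 ± 0.0468 in the control (SD, n = 3 each), and the ratio of HOXD9 to HOXD10 overlapped between the groups. HOXD9 stood at 260, 237 and 59.8 times the low HOXD11 after knockdown and at 17.4, 15.6 and 15.9 times in the controls, without overlap.

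Read by position number, HOXC and HOXD went opposite ways at positions 8 and 9. At position 9, HOXD9 rose and HOXC9 fell, and HOXD9 stood at 11.9 to 21.3 times HOXC9 in the knockdown libraries against 1.98 to 2.07 times in the controls. At position 8, HOXD8 rose and HOXC8 fell, with HOXD8 at 101, 68.1 and 83.3 times HOXC8 against 4.64, 3.82 and 4.85 times. At position 4 both rose, HOXD4 by more, and HOXD4 stood at 0.819 ± 0.0356 times HOXC4 against 0.256 ± 0.0236 (SD, n = 3 each). FPKM is per length, which puts different genes on a common scale. The annotation used is not given, however, and shared exons leave the ratio of HOXD4 to HOXC4 uncertain. HOXD4 shares 80.5% and HOXC4 17.8% of its exonic bases with other genes of the same strand. Of the anterior group (positions 1 to 3) 1 of 8 members was tested, of the central group (4 to 8) 5 of 15, and of the posterior group (9 to 13) 3 of 16.

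In the HOXB cluster, HOXB2 differed. HOXB2 (chromosome 17, 48542655 to 48545109), a hindbrain gene, was listed at 0 throughout the knockdown and at 0.976, 1.06 and 1.32 FPKM in the controls. At the lower minimum of 0.1 FPKM, which it passed only through the controls, it was called lower (limma adjusted p = 1.40e-05). Its neighbour HOXB3 was listed at 0 in the knockdown and at 0.124, 0.129 and 0.126 FPKM in the controls, and the antisense gene HOXB-AS1 at 0 against 0.450, 0.118 and 0.133 (not called, adjusted p = 0.0509). HOXB4 was above 0 in control library 2 alone (0.0349 FPKM). The other HOXB genes, from HOXB5 to HOXB13 and HOXB1, were listed at 0 in every library. Relative depth was 69.7%, 52.4% and 94.4% of the deepest library in the knockdown and 84.2% or more in the controls, and its part in these zeros was not tested.

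Long noncoding genes HAGLR and LINC01116 of the HOXD region were higher in the knockdown. Counts on the lists that follow stand beside 30.5% higher and 35.9% lower over all tested genes. Of 20 mostly noncoding genes in or near the clusters that the deposited data list, 3 were tested, 2 rose and none fell (HOXD-AS2 was not called). The 20 include PRAC1, PRAC2 and the readthrough HOXA10-HOXA9. Listed at 0 throughout were 13, among them these and HOTAIRM1 and HOTTIP of HOXA. HAGLR, between HOXD3 and HOXD1 on the other strand, stood at 7.13, 7.43 and 7.38 FPKM after knockdown and 3.91, 3.77 and 3.81 in the control, a rise of 0.78 (standard error 0.060, limma adjusted p = 5.61e-06) that was 0.03 and not called with columns rescaled to equal sums. LINC01116 (chromosome 2, 176611437 to 176637609), which lies 421 kb beyond HOXD1, stood at 41.3, 36.2 and 39.9 FPKM against 13.6, 13.4 and 14.3. It rose by 1.44 (standard error 0.059, limma adjusted p = 1.03e-07), close in size to HOXD3 and HOXD8. HOXD-AS2, between HOXD8 and HOXD4, stood at 9.26, 7.21 and 4.12 FPKM against 5.34, 4.71 and 5.13, and was not called (adjusted p = 0.216) unless knockdown library 3 was left out (0.60, adjusted p = 0.00184). The kit keeps strand, but whether strand was used in counting is not stated in the labels, and antisense values are uncertain. HOTAIR of the HOXC cluster was above 0 in 1 control library only (0.0298 FPKM).

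Neighbours of HOXD outside the cluster moved in both directions. MTX2, a mitochondrial import gene 78.5 kb beyond HOXD1 and thus between the cluster and LINC01116, stood at 35.7 ± 1.5 FPKM after knockdown and 32.7 ± 0.201 in the control (SD, n = 3 each), a log2 fold change of 0.12 (limma adjusted p = 0.0447). KIAA1715 (current symbol LNPK), an endoplasmic reticulum gene 84.7 kb from HOXD13 on the other side, had a log2 fold change of -0.35 (adjusted p = 0.0044). Within 1500 kb outside HOXD, 13 genes were tested, of which 7 rose and 5 fell with a median of 0.12. LINC01116 was the only one to rise by 1 or more, and WIPF1, an actin regulator gene, the only one to fall by as much (-1.12, adjusted p = 1.73e-06). Outside HOXC 31 were tested, 11 rose and 12 fell, and the median was -0.02. Of the 28 tested genes among the 4 nearest protein-coding genes on either side of each cluster, 7 rose and 16 fell. The largest changes among these were falls of CREB5 (-1.65) and SNX10 (-1.16), which lie 1099 and 719 kb from HOXA. Next came rises of CALCOCO1 (0.98) and HNRNPA1 (0.76), 211 and 225 kb from HOXC. NFE2L2, 1039 kb from HOXD, followed with a fall (-0.72). All were called, with limma adjusted p from 1.35e-07 to 8.93e-05. The rises of CALCOCO1 and HNRNPA1 did not hold with columns rescaled to equal sums (0.15 and -0.15). With 6 abundant small RNAs left out of the sums they were 0.95 and 0.72.

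**Figure D4:**
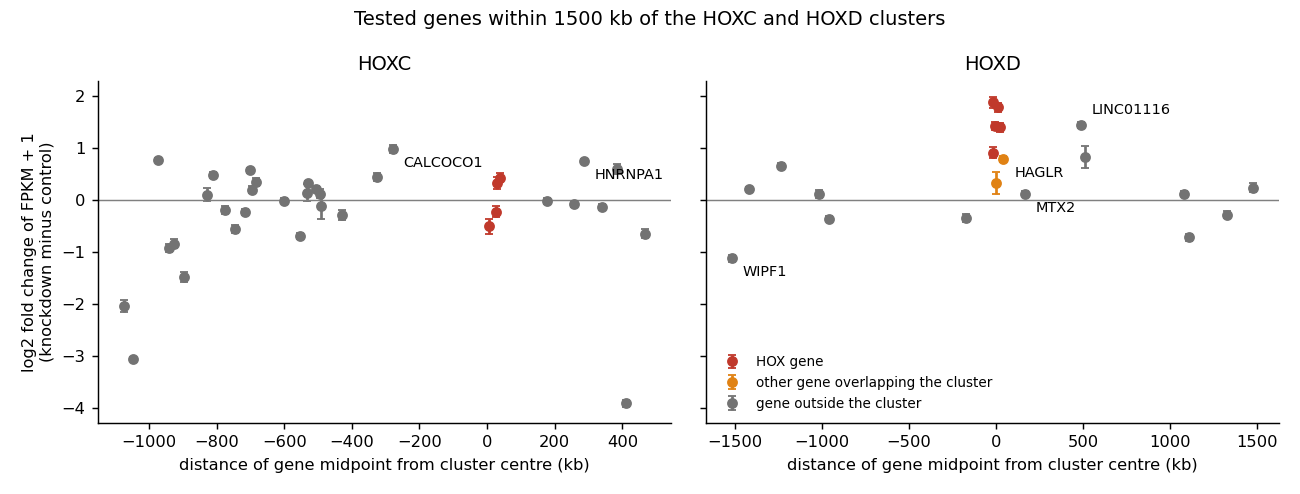
Log2 fold change of FPKM + 1 (knockdown minus control, bars for 1 standard error) of tested genes against the distance of their midpoint from the centre of the HOXC (left) or HOXD (right) cluster, in kb. HOXD members lie between 0.91 and 1.88, MTX2 at 0.12 and LINC01116 at 1.44.

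Among the TALE co-factors, 4 of 8 tested genes rose and 2 fell, with a median of 0.10 (-0.02 over all tested genes). MEIS1, a co-factor of many HOX proteins, stood at 39.9 ± 0.485 FPKM after knockdown and 14.3 ± 0.475 in the control and rose by 1.42 (limma adjusted p = 2.16e-08). MEIS2 stood at 150 ± 3.12 against 73.6 ± 1.44 FPKM (1.02, adjusted p = 4.51e-08), but was not called with columns rescaled to equal sums (0.13). The MEIS1 rise kept its call in all 19 alternatives run. PBXIP1, which encodes a PBX-interacting protein, rose by 0.24 (adjusted p = 0.00268) but was at -0.62 under that rescaling, and PBX3 fell by 0.28 (adjusted p = 0.00175). MEIS3 also fell (-0.23; -0.09 and not called with quantile normalization), so the family did not move together.

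Genes of retinoic acid supply were mostly lower. Of 12 tested genes of that pathway 9 fell and 2 rose, with a median of -0.35. RDH10, which makes retinaldehyde from retinol, stood at 5.07 ± 0.174 FPKM after knockdown and 25.2 ± 1.17 in the control (log2 fold change -2.11, limma adjusted p = 7.92e-09). STRA6, the retinol uptake receptor, stood at 9.95 ± 0.964 against 25.3 ± 0.741 FPKM, and DHRS3, a retinaldehyde reductase gene that retinoic acid itself induces, at 0.631 ± 0.128 against 2.5 ± 0.348, so that DHRS3 was tested only because of its control level. The binding protein gene CRABP1 and the receptor gene RARB, a retinoic acid target, fell by 0.90 and 0.63. The 2 that rose were the receptor genes RARA and RXRA (0.40 and 0.50). ALDH1A1, ALDH1A2 and CYP26A1 did not reach the minimum. ALDH1A3 did, and it was called lower (2.06 against 3.16 FPKM, log2 fold change -0.45, limma adjusted p = 0.00286).

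Of 13 other tested regulators 5 rose and 3 fell, with a median of -0.0068. MEN1 and KDM6B, whose products act with trithorax-type methylation and in removal of the Polycomb mark, rose by 0.64 and 0.62 (limma adjusted p = 1.77e-05 and 2.45e-05) and were -0.21 and -0.23 with columns rescaled to equal sums. GMNN, an inhibitor of replication licensing that also restrains HOX proteins, fell by 1.01, and ZNF703 fell by 0.59. ZNF703 was tested only because of its control level (0.843 FPKM after knockdown against 1.79). Of the Polycomb genes on the list EZH2 was called (log2 fold change -0.35, adjusted p = 1.81e-04), while EED and SUZ12 were not (-0.21 and -0.03). The EZH2 call was lost with quantile normalization (-0.11, adjusted p = 0.0795). The trunk regulator genes CDX2 and CDX4 and the cluster-linked homeobox genes EVX1 and EVX2 were listed at 0 in all libraries. CDX1, of the same family, stood at 0.451, 0.295 and 0.458 FPKM against 0, 0.0821 and 0.0467, without overlap. At the lower minimum of 0.1 FPKM, which it passed only through its knockdown level, it was called higher (log2 fold change 0.42, limma adjusted p = 0.00259).

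**Figure D5:**
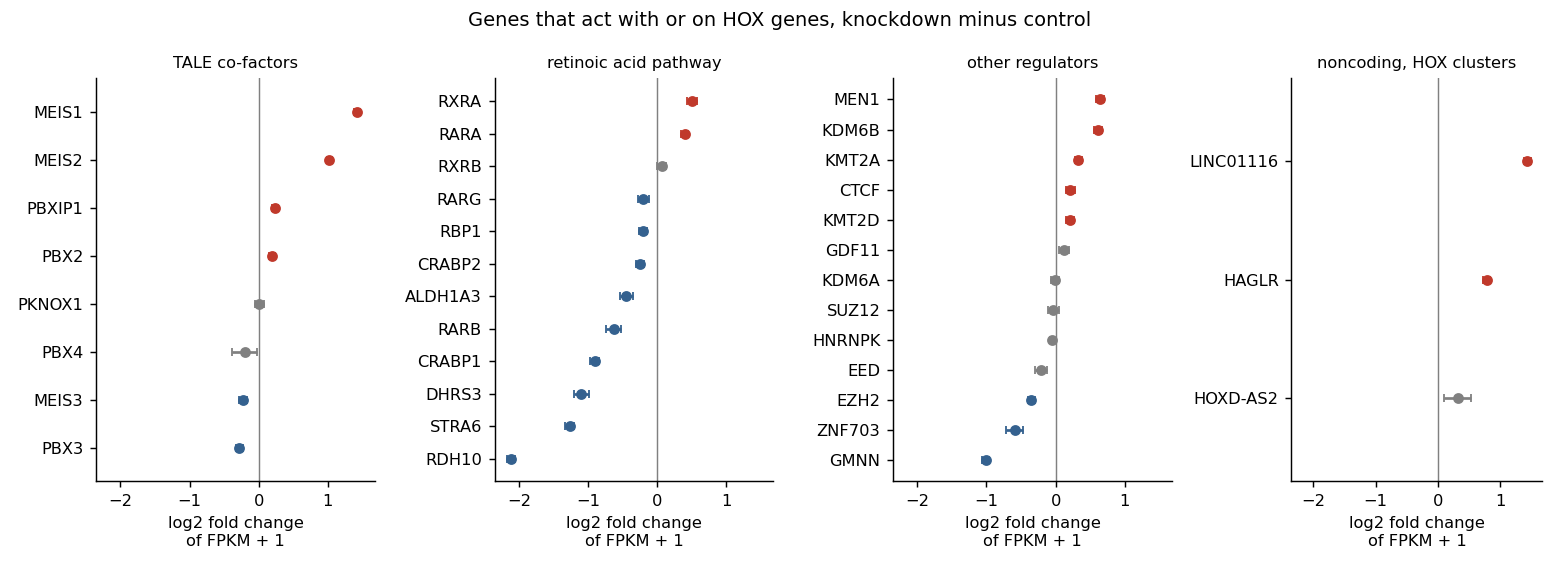
Log2 fold change of FPKM + 1 (knockdown minus control, bars for 1 standard error) of tested genes on 4 lists. Red marks called higher, blue called lower and grey not called, with MEIS1 at 1.42 and RDH10 at -2.11.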

How the data were processed

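The authors deposited a single table of gene-level FPKM. Their processing notes name the build hg38 and the tools Cuffdiff 2.2.1, SAMtools and TopHat2 2.1.0. Settings, gene annotation and use of strand: not given in the sources used here. Groups and replicate numbers came from the sample titles. The scale was log2(FPKM + 1), which compresses changes of low genes, and the test was limma 3.58.1 in R 4.3.3 (intensity trend), an approach also tested on simulated data. Genes with a mean under 1 FPKM were left out, and members down to 0.1 FPKM were tested in a second fit. The members, lists and tests were chosen with earlier results of these data known. Members were given in full when tested, and from each other list up to 5 tested genes with the largest change were named. Some genes of these lists are not reported here and were left out before counting and ranking. Others, such as RXRA and MTX2, and the 3 promoters, were picked after their values were seen. Positions are 1-based, from RefSeq on GRCh38.p14, which matched all 39 members, and 20 had a promoter sequence there. Exon overlap came from GENCODE 29 on the same assembly. Same-numbered libraries did not deviate together (correlations of -0.02, -0.18 and -0.09). Alternatives were other pseudocounts, minimum means, scalings, limma settings, a replicate block and leaving out each library. Ratios and plots used Python 3.11.15 with pandas 2.3.3, scipy 1.17.1 and matplotlib 3.10.9.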

Additional observations from a re-analysis of the deposited data

How the results depend on the processing

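The rises of HOXD3, HOXD4, HOXD8 and HOXD9 kept their direction and call in 19 of 19 alternatives and that of HOXD10 in 18 of 18 in which it was tested. The number of HOX genes called lower, 1 as reported, was 3 at a minimum mean of 0.1 FPKM, 4 with no filter, 0 at a minimum mean of 5 FPKM, 4 with columns rescaled to equal sums and 2 with the replicate block, and 0 to 2 when 1 library was left out. The number called higher, 7 as reported, was 5 to 7. The replicate number as a block moved the calls to 6 higher and 2 lower, since HOXC5 was lost (adjusted p = 0.0601) and HOXC6 gained (adjusted p = 0.0364), but the numbers do not pair the libraries. Columns rescaled to equal sums gave 522 genes higher and 11689 lower, against 3784 and 5154 when 6 abundant small RNAs were first left out. With whole columns at equal sums HOXC4 was at -0.40, HOXC5 at -0.37, PBXIP1 at -0.62 and MEN1 at -0.21. KDM6B was at -0.23, HNRNPA1 at -0.15 and HOXD-AS2 at -0.45. With the small RNAs left out of the sums, HAGLR was at 0.76, MEIS2 at 0.99 and MEN1 at 0.61. Leaving out 1 library gave 3598 to 4257 genes higher and 4394 to 4883 lower. With quantile normalization 58.8% of calls were higher, against 45.9% as reported, and the median of all genes moved by 0.11. Added after seeing the data were 13 alternatives at the lower minimum: HOXB2 and HOXC8 kept their calls in 13, HOXD1 in 12, the exception being columns rescaled to equal sums (0.20, adjusted p = 0.115), and HOXD11 was called lower there (-0.34) and without knockdown library 3 (-0.25). Absolute depth is unknown, so no limit could be set for genes listed at 0.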
